A study of Mus musculus with 18 samples.

Results

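The mRNAs of 44 genes of mitosis and cytokinesis were followed in cultured mouse fetal liver erythroid progenitors, from the kinases that start mitosis to the proteins that cut the dividing cell. The members were taken from a list of gene symbols and are 44 of the 46167 genes for which reads were summed. No measured value enters the rule itself, but the list was chosen with earlier results of these data known. All 44 were among the 17500 genes that passed the filter on low counts and were tested. The cells were hematopoietic progenitors enriched with an antibody kit, to which an antibody against CD71 was added, from livers of CD-1 mouse embryos at embryonic day 14.5. All groups were infected with MSCV-PIG retroviruses, which carry puromycin resistance and GFP and express a short hairpin RNA (shRNA). The shRNAs targeted Pcbp2 (PCBP2 knockdown), Pcbp1 (PCBP1 knockdown) or no mouse gene (controls with 2 scrambled hairpins, SCR-1 and SCR-2, and 1 luciferase hairpin, LUC-1). Day 2 cells had spent 2 days in differentiation medium with erythropoietin, and Day 0 cells were taken at the end of the 48 hours in expansion medium with dexamethasone, erythropoietin and stem cell factor. Each of the 6 groups had 3 libraries, and the 3 libraries of a knockdown are hairpins 1, 3 and 4, so a replicate is a different hairpin. Values of a knockdown are given in the order of hairpins 1, 3 and 4, and values of controls in the order SCR-1, SCR-2 and LUC-1. Separate cultures or litters are not named in the labels, so a p-value covers only the variation among the libraries at hand. Effects are log2 fold changes, and a value followed by a standard error (SE) is one unless another unit is given.

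Mitosis begins when cyclin-dependent kinase 1, bound to A- and B-type cyclins, phosphorylates its targets together with Polo-like and Aurora kinases. Kinetochores attach chromosomes to spindle microtubules, the spindle checkpoint holds the cell until all are attached, and the anaphase-promoting complex then marks securin and cyclin B for destruction so that chromatids part and the cell divides. Erythroid progenitors divide rapidly, pass through a last few divisions as they fill with hemoglobin, leave the cell cycle and expel their nucleus. Both targeted proteins bind C-rich RNA and act in splicing, mRNA stability and translation.

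The libraries held 27033440 to 54096339 estimated reads. Pcbp2 had 37 to 48 CPM (a gene's count scaled to the TMM-adjusted library size) in the PCBP2 knockdown against 225 to 247 CPM in controls at Day 2, and 70.3 to 73.5 against 282 to 299 CPM at Day 0. Pcbp1 had 15.6 to 57.2 CPM in the PCBP1 knockdown against 241 to 284 CPM in controls at Day 2, and 14.2 to 59.4 against 186 to 206 CPM at Day 0, with hairpin 3 the highest on both days. The labelled erythroid identity was checked on 10 erythroid markers, all detected in every library, whose summed level was 360000 to 625000 CPM at Day 2 and 3560 to 4760 CPM at Day 0, while 5 progenitor markers summed to 44.5 to 67.9 and 593 to 705 CPM. Most of the Day 2 erythroid sum was globin mRNA, Hbb-bs with 203000 to 311000 CPM and Hba-a1 with 119000 to 270000 CPM. Granulocyte markers (8 genes, none at 0) summed to 894 to 1340 CPM at Day 2 and 875 to 1020 CPM at Day 0, megakaryocyte markers (6 genes, none at 0) to 618 to 783 and 233 to 296 CPM, mast cell, basophil and eosinophil markers (7 genes, up to 2 at 0) to 56 to 91.1 and 26.8 to 48 CPM, and no library had more than 35 CPM of macrophage, hepatocyte, endothelial and stromal or lymphoid markers. The granulocyte sums hide opposite moves. Mpo had 484 to 586 CPM at Day 0 and 13.3 to 25.2 CPM at Day 2, and Elane and Prtn3 were also lower at Day 2. Ltf had 5.93 to 9.33 CPM at Day 0 and 195 to 308 CPM at Day 2. Ngp, Camp, S100a8 and S100a9 were also higher at Day 2. Of the mast cell, basophil and eosinophil markers, Prg2 was higher and Cpa3, Mcpt8 and Ms4a2 lower. The Day 2 control LUC-1 stood apart: it had the lowest level of the 9 Day 2 libraries in 20.5% of all genes, the highest in 18.6%, and the highest erythroid sum (625000 CPM). Results on gene levels are therefore given with and without it. The deposited splicing tables pool it with the other controls and cannot be read without it.

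Between Day 0 and Day 2 most mitotic mRNAs fell, while Fzr1, Incenp, Ube2c and Pttg1 rose on the TMM scale used for all counts of calls. Of the 44 members, 40 fell and 4 rose with PCBP2 knockdown, 36 fell and 4 rose with PCBP1 knockdown, and 39 fell and 4 rose in controls (edgeR quasi-likelihood test, adjusted p under 0.05 over all genes tested). Of all genes, 42.1% were called lower and 40.9% higher with PCBP2 knockdown, 41.7% and 40.3% with PCBP1 knockdown, and 42.4% and 40.4% in controls. The median log2 fold change of the members was -1.15 in the PCBP2 knockdown, -0.73 in the PCBP1 knockdown and -0.93 in controls, against -0.04, -0.04 and -0.05 over all genes. Without the Day 2 LUC-1 control 38 members fell and 4 rose in controls (41.6% and 38.7% of all genes). These are bulk samples, in which fewer dividing cells and less mitotic RNA per cell cannot be told apart.

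The size of the fall, and for Pttg1 the direction, depends on the scaling, and the erythroid marker mRNAs took up much of the Day 2 libraries. With library totals in place of TMM factors the median of all genes was -1.45 in the PCBP2 knockdown, -1.47 in the PCBP1 knockdown and -1.68 in controls, and the members' median was -2.57, -2.16 and -2.56. The members' median minus that of all genes was -1.12, -0.69 and -0.88 on this scaling and -1.11, -0.69 and -0.88 with TMM factors. The members' summed TPM (a transcript's share of the library per unit length) was 1047 to 1119 in the PCBP2 knockdown, 1171 to 1390 in the PCBP1 knockdown and 958.2 to 1173 in controls at Day 2, and 3713 to 4075 in the 9 Day 0 libraries. With library totals Pttg1 had -0.21 (SE 0.11) in controls and was not called there or in the PCBP2 knockdown, while Fzr1, Incenp and Ube2c were still called higher in each condition. On the TPM scale Ube2c was no higher at Day 2 in controls (170 ± 19 TPM) than at Day 0 (178 ± 13 TPM).

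**Figure D1:**
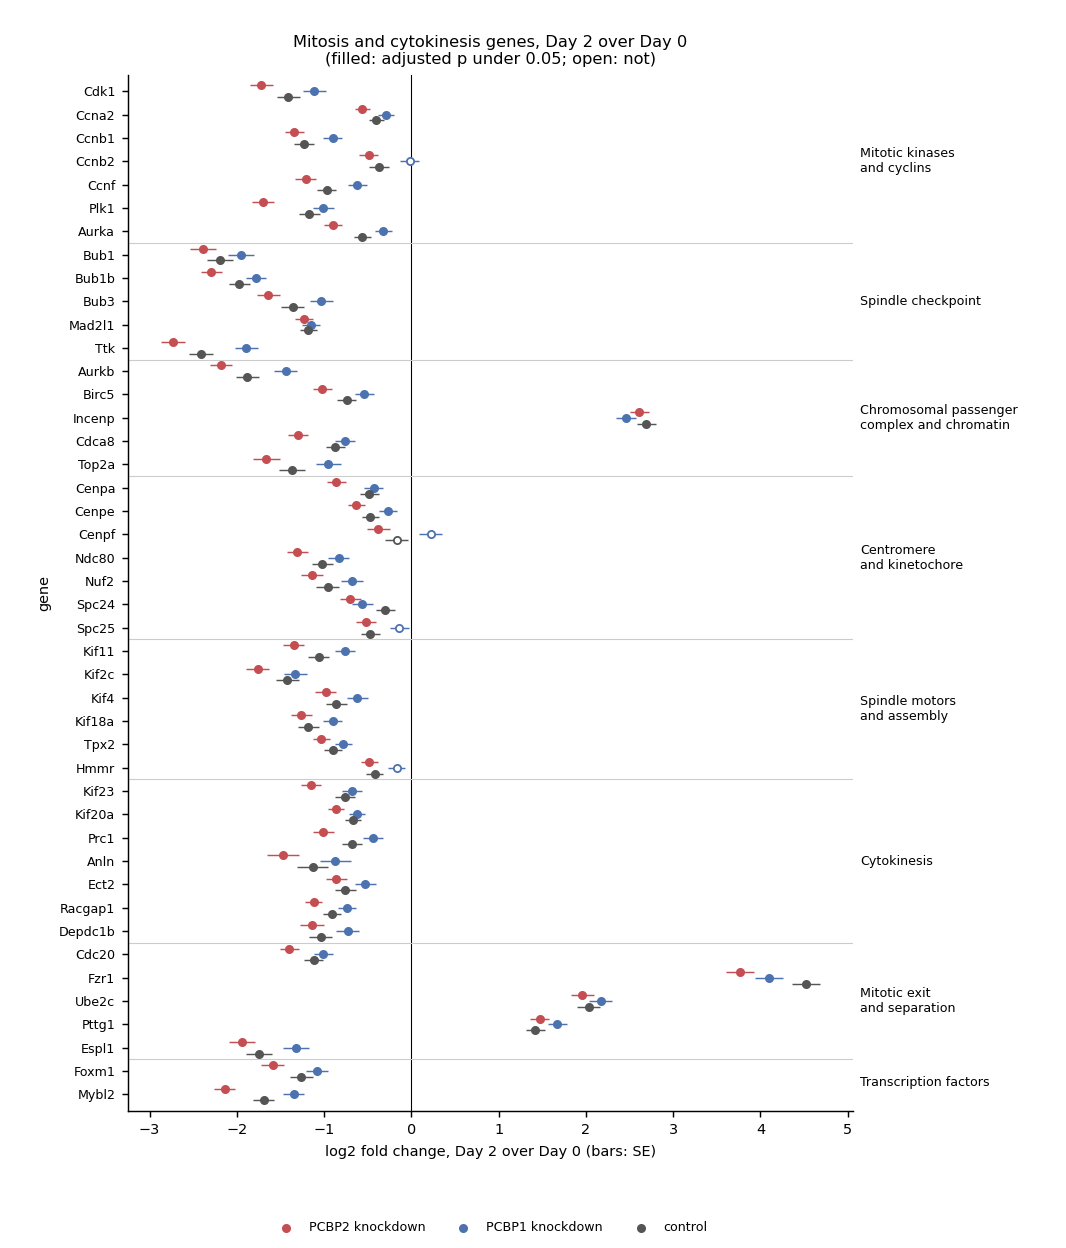
Log2 fold change of each of the 44 genes from Day 0 to Day 2 (x axis, Day 2 over Day 0, positive is higher at Day 2) in the PCBP2 knockdown, the PCBP1 knockdown and controls, with genes down the page by role; points are fitted values, bars 1 standard error (3 libraries per group), filled points have an adjusted p under 0.05. On this TMM scale the rows of Fzr1, Incenp, Ube2c and Pttg1 lie right of 0 (Pttg1 in controls turns to -0.21 with library totals) and nearly all others left of it.

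Per unit length, the levels in controls also changed order. At Day 0 the highest members were Top2a with 282 ± 17 TPM, Cdk1 with 269 ± 12 TPM, Birc5 with 198 ± 3.2 TPM, Ccnb1 with 196 ± 3.8 TPM and Ccna2 with 189 ± 3.7 TPM (mean ± SD, n = 3). The ranges of mean ± SD met for the neighbours Top2a and Cdk1, Birc5 and Ccnb1, and Ccnb1 and Ccna2, and did not meet for Birc5 and Ccna2. At Day 2 the highest were Fzr1 with 248 ± 14 TPM, Ube2c with 170 ± 19 TPM, Incenp with 123 ± 28 TPM and Pttg1 with 76.8 ± 12 TPM, ahead of Ccna2 with 40.2 ± 5.4 TPM, and the lowest were Ttk with 1.47 ± 0.31 TPM and Depdc1b with 1.69 ± 0.45 TPM, within their spread of each other.

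Many promoters of genes expressed in G2 and mitosis carry TTTGAA, the core of the cell cycle genes homology region (CHR), which the MuvB complex with B-Myb or with its repressive DREAM partners binds, and CCAAT boxes, which NF-Y binds. The letters TTTGAA and CCAAT were searched on both strands (as TTCAAA and ATTGG on the other) from 250 bases before to 50 after the start in the RefSeq promoter table for GRCm38.p6, and matches of both may overlap. Of the members, 36 had an entry. TTTGAA was present in 26 of 36 genes (72.2%), against 20.2% of 27025 genes with an entry, and CCAAT in 27 (75%) against 41.1%. At least 2 CCAAT were present in 18 (50%) against 13.3%, and both motifs in 23 (63.9%) against 7.97%. The 10 members without TTTGAA in this window were Birc5, Bub1, Ccnb1, Cenpe, Fzr1, Kif18a, Mad2l1, Mybl2, Nuf2 and Pttg1. A match is a description of letters, not a site, and a missing match says only that the letters are not in this window.
Shown for 4 members are the nearest 120 bases before the RefSeq start that lie in no GENCODE M21 exon, so a stretch may end short of that start. These members moved differently with day: 3 fell, and Ube2c rose on the TMM scale. The stretches have TTTGAA and CCAAT on either strand in capitals. They lie at chr10:69352939-69353058, minus strand, for Cdk1, at chr9:70421555-70421674, minus strand, for Ccnb2, at chr4:118437353-118437472, minus strand, for Cdc20 and at chr2:164769778-164769897, plus strand, for Ube2c.
Cdk1: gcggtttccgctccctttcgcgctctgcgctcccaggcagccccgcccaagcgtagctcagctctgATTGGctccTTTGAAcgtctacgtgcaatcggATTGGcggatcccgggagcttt
Ccnb2: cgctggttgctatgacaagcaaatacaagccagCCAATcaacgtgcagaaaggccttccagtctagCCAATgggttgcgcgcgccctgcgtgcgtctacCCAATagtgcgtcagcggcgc
Cdc20: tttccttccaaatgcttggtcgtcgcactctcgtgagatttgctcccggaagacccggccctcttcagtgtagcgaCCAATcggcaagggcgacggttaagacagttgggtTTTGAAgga
Ube2c: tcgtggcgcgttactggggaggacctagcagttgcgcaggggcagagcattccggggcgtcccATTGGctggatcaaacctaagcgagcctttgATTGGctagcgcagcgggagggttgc
The printed stretch of Cdk1 holds 1 TTTGAA and 2 CCAAT, that of Cdc20 1 of each, and those of Ccnb2 and Ube2c no TTTGAA and 3 and 2 CCAAT. Over the whole window searched, TTTGAA and CCAAT numbered 2 and 3 in Cdk1, 2 and 3 in Ccnb2, 1 and 2 in Cdc20, and 1 and 6 in Ube2c.

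At Day 2 the knockdowns moved the members in opposite directions from control on balance, by small amounts. In the PCBP2 knockdown 6 members fell and 0 rose, against 3.72% of all genes called lower and 0.954% called higher, and 42 of the 44 had a negative value (median -0.17, all genes -0.01). In the PCBP1 knockdown 9 rose and 3 fell, against 5.45% of all genes called higher and 7.51% called lower, and 39 had a positive value (median 0.19, all genes 0.02). Both comparisons use the same 3 controls. Set directly against each other, 23 members were lower and 1 higher with PCBP2 than with PCBP1 knockdown, against 7.5% and 4.83% of all genes, with a median of -0.39 (all genes -0.01). Single libraries bear on these counts. The fit on all libraries estimated the spread over both days together (common dispersion 0.0169, against 0.0293 in the fit on the 9 Day 2 libraries). Fewer members were called in that Day 2 fit, as given below.

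The calls against control depended on the libraries and settings used. Without the Day 2 LUC-1 control, 7 members were lower and 0 higher in the PCBP2 knockdown (4.46% of all genes lower, 0.58% higher), 0 were higher and 3 lower in the PCBP1 knockdown (2.84% of all genes higher, 5.52% lower), and 33 were lower and 1 higher with PCBP2 than with PCBP1 knockdown (11.6% and 5.08%). In that fit 14 members had an unadjusted p under 0.05 in the PCBP1 knockdown, against 20 with all libraries. The share of all genes at that threshold was not counted, so these 2 counts have no background. The 9 calls of higher level in the PCBP1 knockdown also came to 0 without hairpin 1 or without hairpin 4 of that group, after removal of the trend with GC content, and in a fit on the 9 Day 2 libraries alone, where the 2 calls left were Fzr1 and Spc24 (4.24% of all genes lower, 1.92% higher). In that fit Fzr1 was the 1 call in the PCBP2 knockdown (0.403% lower, 0.033% higher). The 9 genes have a GC content of 42.2% to 49.3% over their exons, and the 3 that fell 52.2% to 59.9%. With library totals as the scaling, 31 members were higher and 2 lower in the PCBP1 knockdown (19.8% and 3.59% of all genes), and 1 was higher and 2 lower in the PCBP2 knockdown (5.57% and 1.25%), where 24 members had a positive and 20 a negative value. The median of all genes then was 0.19 in the PCBP2 and 0.25 in the PCBP1 knockdown, and the members' median minus it was -0.18 and 0.17.

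**Figure D2:**
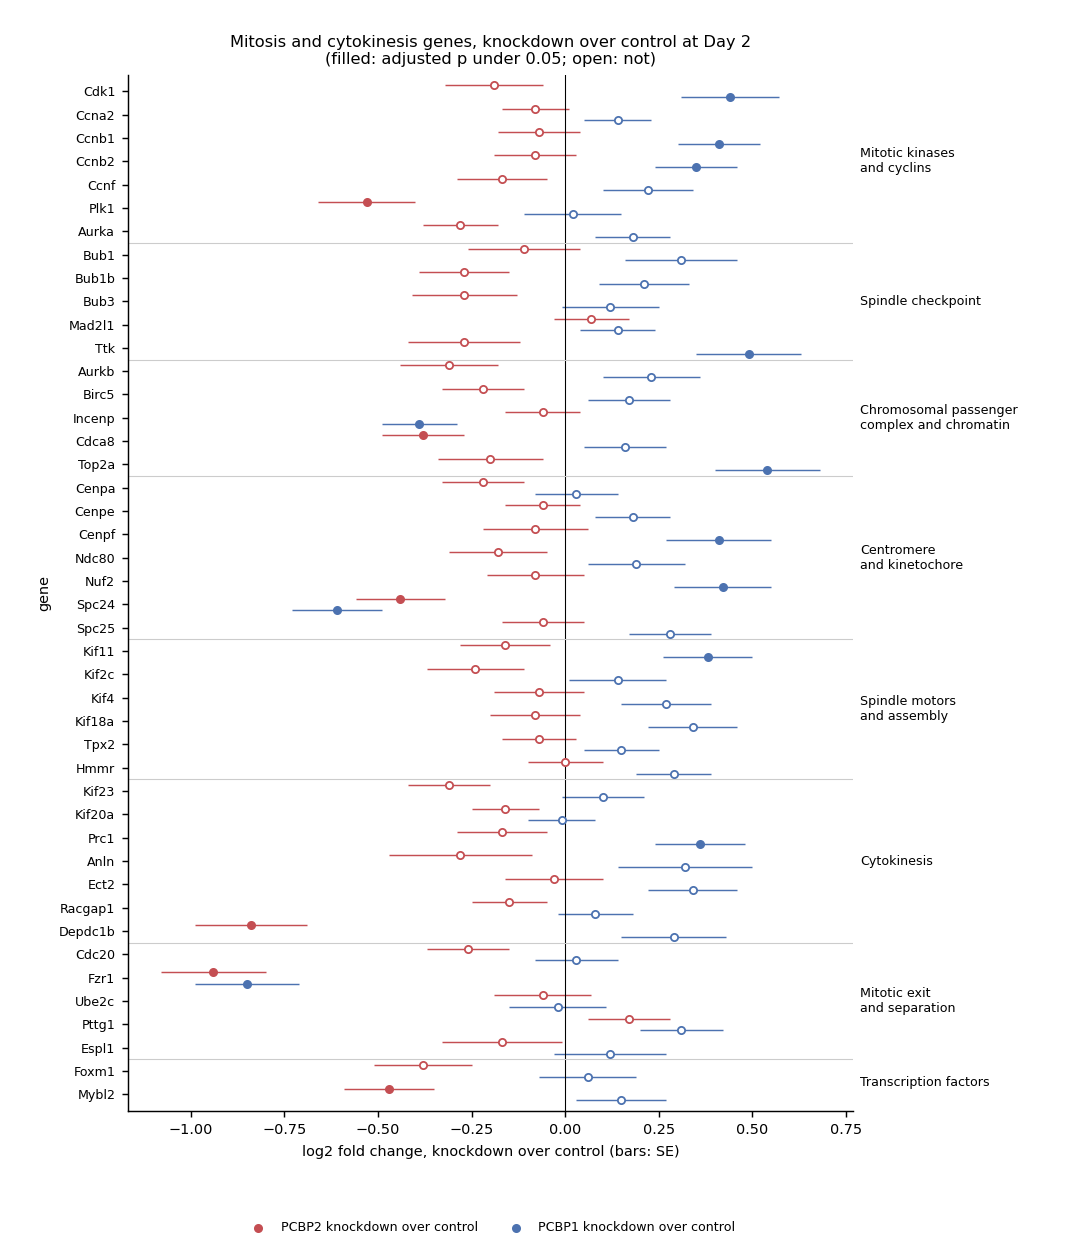
Log2 fold change of each of the 44 genes at Day 2 (x axis, knockdown over control, positive is higher in the knockdown) for the PCBP2 and the PCBP1 knockdown, by role; bars are 1 standard error (3 libraries per group, shared controls) and filled points have an adjusted p under 0.05. PCBP1 points lie mostly right of 0 and PCBP2 points mostly left, while Fzr1 and Spc24 lie left of 0 in both.

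Libraries within a group differed in the members' common level at Day 2. Relative to the mean of the 9 Day 2 libraries, the members' median was -0.17, -0.12 and -0.26 (log2) in the PCBP2 knockdown, 0.34, -0.06 and 0.29 with PCBP1 knockdown, and 0.14, -0.01 and -0.14 in controls. Hairpins 1 and 4 against Pcbp1 lay above every control and hairpin 3 lay between the controls, while the 3 PCBP2 hairpins lay close to or below the lowest control. Of the 44 members, 29 had their highest Day 2 level with PCBP1 hairpin 1 and 9 with hairpin 4, and 25 had their lowest with PCBP2 hairpin 4 and 9 with LUC-1. Of all genes, 16.2% were highest with PCBP1 hairpin 1 and 12.1% with hairpin 4, and 11.8% were lowest with PCBP2 hairpin 4 and 20.5% with LUC-1, so the members' share lowest in LUC-1 was that of all genes. The erythroid marker sum, mostly Hbb-bs and Hba-a1, was 447000, 369000 and 398000 CPM in the PCBP2 knockdown, 360000, 382000 and 376000 CPM in the PCBP1 knockdown, and 453000, 547000 and 625000 CPM in controls. Its part in the members' levels was not tested. At Day 0 the library medians spanned only -0.10 to 0.06.

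**Figure D3:**
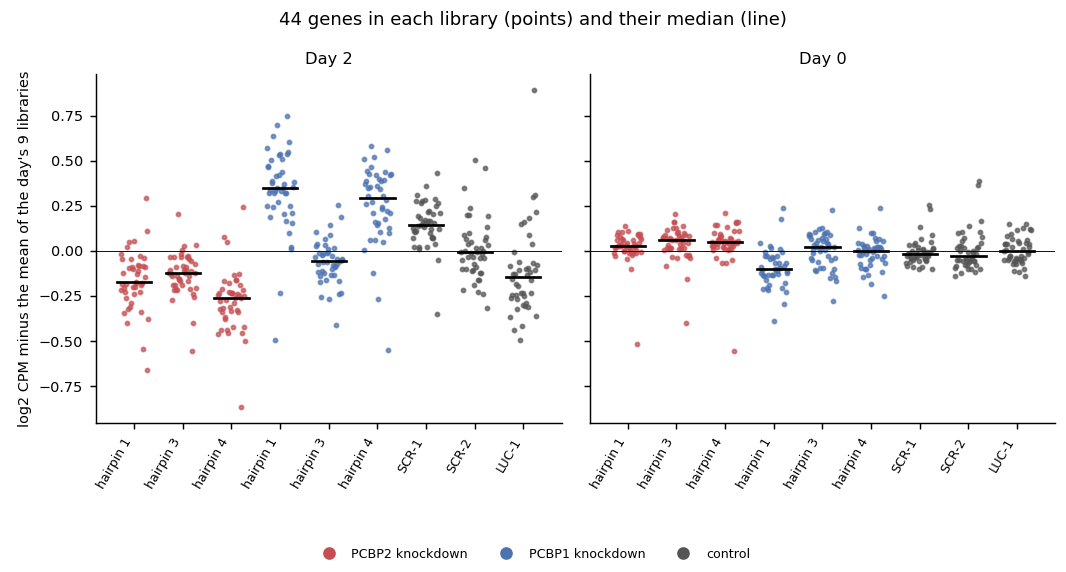
Level of the 44 genes in each library (y axis, log2 CPM minus the mean over the 9 libraries of the same day), at Day 2 on the left and Day 0 on the right; points are genes, lines their median, colours the PCBP2 knockdown, PCBP1 knockdown and controls. At Day 2 the medians run from -0.26 (PCBP2 hairpin 4) to 0.34 (PCBP1 hairpin 1), and at Day 0 all lie between -0.10 and 0.06.

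The mitotic kinases and cyclins fell with day, with a median of -1.21 in the PCBP2 knockdown, -0.62 in the PCBP1 knockdown and -0.97 in controls. All 7 fell in the PCBP2 knockdown and in controls, and 6 of 7 in the PCBP1 knockdown, where Ccnb2 had -0.02 (SE 0.11). Cdk1 is the kinase that drives entry into mitosis. At Day 2 Cdk1 had 32.6, 34.7 and 27.5 CPM in the PCBP2 knockdown, 56.1, 37 and 53.9 CPM in the PCBP1 knockdown and 41.3, 37.7 and 29.3 CPM in controls. Day 0 Cdk1 levels were 92.7 to 108 CPM. Ccnb1 is its main mitotic cyclin. At Day 2 Ccnb1 had 67.5, 71 and 65.1 CPM in the PCBP2 knockdown, 106, 77.9 and 99 CPM in the PCBP1 knockdown and 77.7, 71.4 and 63.8 CPM in controls. Day 0 Ccnb1 levels were 161 to 187 CPM. Ccnb2 is a second B-type cyclin. At Day 2 Ccnb2 had 55.2, 52.1 and 45.5 CPM in the PCBP2 knockdown, 78.5, 58.5 and 68.1 CPM in the PCBP1 knockdown and 61.4, 48.9 and 51.1 CPM in controls. Day 0 Ccnb2 levels were 65.2 to 73.7 CPM. For these 3 genes PCBP1 hairpins 1 and 4 were the highest Day 2 libraries, and the PCBP1 knockdown did not overlap the controls for Ccnb1 alone. They rose in the PCBP1 knockdown over control, Cdk1 by 0.44 (SE 0.13, edgeR adjusted p = 0.0305), Ccnb1 by 0.41 (SE 0.11, edgeR adjusted p = 0.012) and Ccnb2 by 0.35 (SE 0.11, edgeR adjusted p = 0.0403). Without the Day 2 LUC-1 control the adjusted p was 0.197, 0.0791 and 0.142. In the PCBP2 knockdown against the PCBP1 knockdown all 3 were lower, Cdk1 with -0.63 (SE 0.13, edgeR adjusted p = 0.00392).

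Plk1 is Polo-like kinase 1, which matures centrosomes and helps start mitosis. At Day 2 Plk1 had 19.8, 20.8 and 18.6 CPM in the PCBP2 knockdown, 28.7, 23.9 and 34.2 CPM in the PCBP1 knockdown and 30.5, 32.1 and 23 CPM in controls. Day 0 Plk1 levels were 56.5 to 68.7 CPM. All 3 PCBP2 hairpins lay below all controls, and the PCBP1 hairpins spread across them. Plk1 fell in the PCBP2 knockdown over control (-0.53, SE 0.13, edgeR adjusted p = 0.0172, and 0.0023 without LUC-1). The Plk1 call was lost in the fit on the Day 2 libraries alone. It was also lost when single libraries such as Day 2 control SCR-1 or SCR-2 were left out. On the Day 2 libraries without LUC-1 Plk1 had -0.64 (SE 0.16, edgeR adjusted p = 0.094). Aurka is Aurora A, the spindle pole kinase. At Day 2 Aurka had 38.4, 38.8 and 35 CPM in the PCBP2 knockdown, 56, 44 and 54.7 CPM in the PCBP1 knockdown and 47.9, 44.3 and 44.2 CPM in controls. Day 0 Aurka levels were 60.9 to 72.1 CPM. Ccnf is cyclin F, the substrate-binding part of a ubiquitin ligase. At Day 2 Ccnf had 47.7, 47.2 and 42.9 CPM in the PCBP2 knockdown, 65, 47.9 and 67.9 CPM in the PCBP1 knockdown and 55.9, 55.3 and 43.8 CPM in controls. Day 0 Ccnf levels were 86.4 to 107 CPM. Ccna2 is cyclin A2. At Day 2 Ccna2 had 184, 182 and 157 CPM in the PCBP2 knockdown, 221, 200 and 187 CPM in the PCBP1 knockdown and 196, 180 and 176 CPM in controls. Day 0 Ccna2 levels were 229 to 266 CPM. Aurka was below all controls in the PCBP2 knockdown without passing the test (-0.28, SE 0.10, edgeR adjusted p = 0.108), while Ccnf and Ccna2 overlapped the controls. Plk1, Aurka and Ccnf were lower in the PCBP2 than in the PCBP1 knockdown, with -0.55 (SE 0.13, edgeR adjusted p = 0.00749), -0.46 (SE 0.10) and -0.39 (SE 0.12), and Ccna2 was so without LUC-1 (adjusted p 0.0423, against 0.13 with it). The reads of Ccna2 include exons that overlap Exosc9 on the other strand, and the deposited values do not say whether strand was used.

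The spindle checkpoint genes fell most with day of the groups that fell, with medians of -2.29 in the PCBP2 knockdown, -1.78 in the PCBP1 knockdown and -1.97 in controls, and all 5 fell in each. Ttk is the Mps1 kinase that starts checkpoint signalling. At Day 2 Ttk had 6.04, 6.89 and 6.12 CPM in the PCBP2 knockdown, 12.4, 7.83 and 11.9 CPM in the PCBP1 knockdown and 8.07, 8.18 and 6.63 CPM in controls. At Day 0 Ttk had 41.5, 42.8 and 42.6 CPM in the PCBP2 knockdown, 35.4, 42.1 and 41.5 CPM in the PCBP1 knockdown and 39.4, 42.3 and 40 CPM in controls. Ttk fell by the largest amount of all members in controls (-2.41, SE 0.14, edgeR adjusted p = 5.21e-14) and in the PCBP2 knockdown (-2.73, SE 0.14), with -1.89 (SE 0.13) in the PCBP1 knockdown. At Day 2 it rose in the PCBP1 knockdown over control (0.49, SE 0.14, edgeR adjusted p = 0.0276; adjusted p 0.141 without LUC-1), and it was lower in the PCBP2 than in the PCBP1 knockdown (-0.75, SE 0.15, edgeR adjusted p = 0.00232). Bub1 is a kinase that recruits checkpoint proteins to kinetochores. At Day 2 Bub1 had 23.7, 27.1 and 24 CPM in the PCBP2 knockdown, 39.4, 25.2 and 35.4 CPM in the PCBP1 knockdown and 34.4, 25.9 and 20.5 CPM in controls. Day 0 Bub1 levels were 123 to 138 CPM. Bub1b is the BubR1 protein that inhibits the anaphase-promoting complex. At Day 2 Bub1b had 32.2, 31.5 and 29.4 CPM in the PCBP2 knockdown, 47.8, 32.4 and 49.2 CPM in the PCBP1 knockdown and 40.2, 38.3 and 33.5 CPM in controls. Day 0 Bub1b levels were 145 to 152 CPM. Bub3 is the partner of Bub1 and BubR1. At Day 2 Bub3 had 21.9, 23 and 23.4 CPM in the PCBP2 knockdown, 34.1, 22 and 33.6 CPM in the PCBP1 knockdown and 30, 30.1 and 22.2 CPM in controls. Day 0 Bub3 levels were 60.2 to 74.8 CPM. PCBP1 hairpins 1 and 4 were again the highest for these 3 genes, and the PCBP2 knockdown lay below all controls for Bub1b. Bub1b was lower in the PCBP2 than in the PCBP1 knockdown (-0.48, SE 0.12, edgeR adjusted p = 0.011), and Bub1 and Bub3 were so without LUC-1 but not with it (adjusted p 0.0166 and 0.0181). Mad2l1 is Mad2, which with BubR1 holds back Cdc20. At Day 2 Mad2l1 had 42.3, 39.1 and 43.9 CPM in the PCBP2 knockdown, 49.3, 38.6 and 43.5 CPM in the PCBP1 knockdown and 42, 40.6 and 36.7 CPM in controls. Day 0 Mad2l1 levels were 87.1 to 102 CPM. Its Day 2 groups overlapped, and no knockdown comparison called it with all libraries.

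The chromosomal passenger complex divided with day: Incenp rose in each condition, and its partners Aurkb, Birc5 and Cdca8 fell together with Top2a. Incenp is the scaffold of the complex. At Day 2 Incenp had 677, 754 and 677 CPM in the PCBP2 knockdown, 466, 601 and 601 CPM in the PCBP1 knockdown and 788, 773 and 629 CPM in controls. At Day 0 Incenp had 114, 114 and 117 CPM in the PCBP2 knockdown, 96.2, 105 and 102 CPM in the PCBP1 knockdown and 113, 115 and 111 CPM in controls. Its Day 2 level was several times its Day 0 level in all 9 libraries, by 2.61 (SE 0.11, edgeR adjusted p = 8.71e-17) in the PCBP2 knockdown, 2.46 (SE 0.11) in the PCBP1 knockdown and 2.69 (SE 0.11) in controls, and it rose also with library totals (1.06, SE 0.12, in controls). At Day 2 all 3 PCBP1 hairpins lay below all controls (-0.39, SE 0.10, edgeR adjusted p = 0.0113), and the PCBP2 knockdown was above the PCBP1 knockdown (0.34, SE 0.10, edgeR adjusted p = 0.0303), the only member called higher there, though not with library totals. The fall in the PCBP1 knockdown was larger without LUC-1 (-0.50, adjusted p 0.00157), and was not called without Day 2 control SCR-1 or SCR-2, without PCBP1 hairpin 1, in the fit on the Day 2 libraries alone, with library totals or after removal of the GC trend (-0.17 to -0.46, adjusted p up to 0.311).

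Aurkb is Aurora B, the kinase of the complex. At Day 2 Aurkb had 13.1, 14.9 and 12.7 CPM in the PCBP2 knockdown, 20.5, 16.2 and 22.6 CPM in the PCBP1 knockdown and 18.6, 18.8 and 13.1 CPM in controls. At Day 0 Aurkb had 63.6, 59.8 and 61.8 CPM in the PCBP2 knockdown, 50.8, 54.7 and 55.1 CPM in the PCBP1 knockdown and 60.5, 63.6 and 63 CPM in controls. Aurkb was among the members that fell most with day, with -1.88 (SE 0.13) in controls. Birc5 is survivin. At Day 2 Birc5 had 45.1, 41.5 and 39.9 CPM in the PCBP2 knockdown, 60.7, 46.3 and 58.3 CPM in the PCBP1 knockdown and 53.2, 51.6 and 42.1 CPM in controls. Day 0 Birc5 levels were 74.9 to 86.7 CPM. Cdca8 is borealin. At Day 2 Cdca8 had 30.4, 33.8 and 27.8 CPM in the PCBP2 knockdown, 50.4, 39.5 and 43.6 CPM in the PCBP1 knockdown and 45.7, 39 and 35 CPM in controls. Day 0 Cdca8 levels were 70.9 to 78.8 CPM. Cdca8 was below all controls in all 3 PCBP2 hairpins (-0.38, SE 0.11, edgeR adjusted p = 0.0488; adjusted p 0.0104 without LUC-1), a call that ended when any 1 of 13 other libraries was left out, while Aurkb was called against control without LUC-1 but not with it (-0.52, adjusted p 0.0213). Top2a is topoisomerase II alpha, which untangles sister chromatids. At Day 2 Top2a had 165, 181 and 147 CPM in the PCBP2 knockdown, 327, 206 and 289 CPM in the PCBP1 knockdown and 222, 200 and 143 CPM in controls. Day 0 Top2a levels were 471 to 556 CPM. It was highest with PCBP1 hairpins 1 and 4 and lowest in LUC-1, and rose in the PCBP1 knockdown (0.54, SE 0.14, edgeR adjusted p = 0.0156; adjusted p 0.117 without LUC-1). Aurkb, Birc5, Cdca8 and Top2a were all lower in the PCBP2 than in the PCBP1 knockdown, with values from -0.74 (SE 0.14) for Top2a to -0.39 (SE 0.11) for Birc5 (edgeR adjusted p 0.0032 for Cdca8, 0.00257 for Top2a, 0.0104 for Aurkb and 0.0223 for Birc5). Exons of Cdca8 overlap 9930104L06Rik on the other strand.

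**Figure D4:**
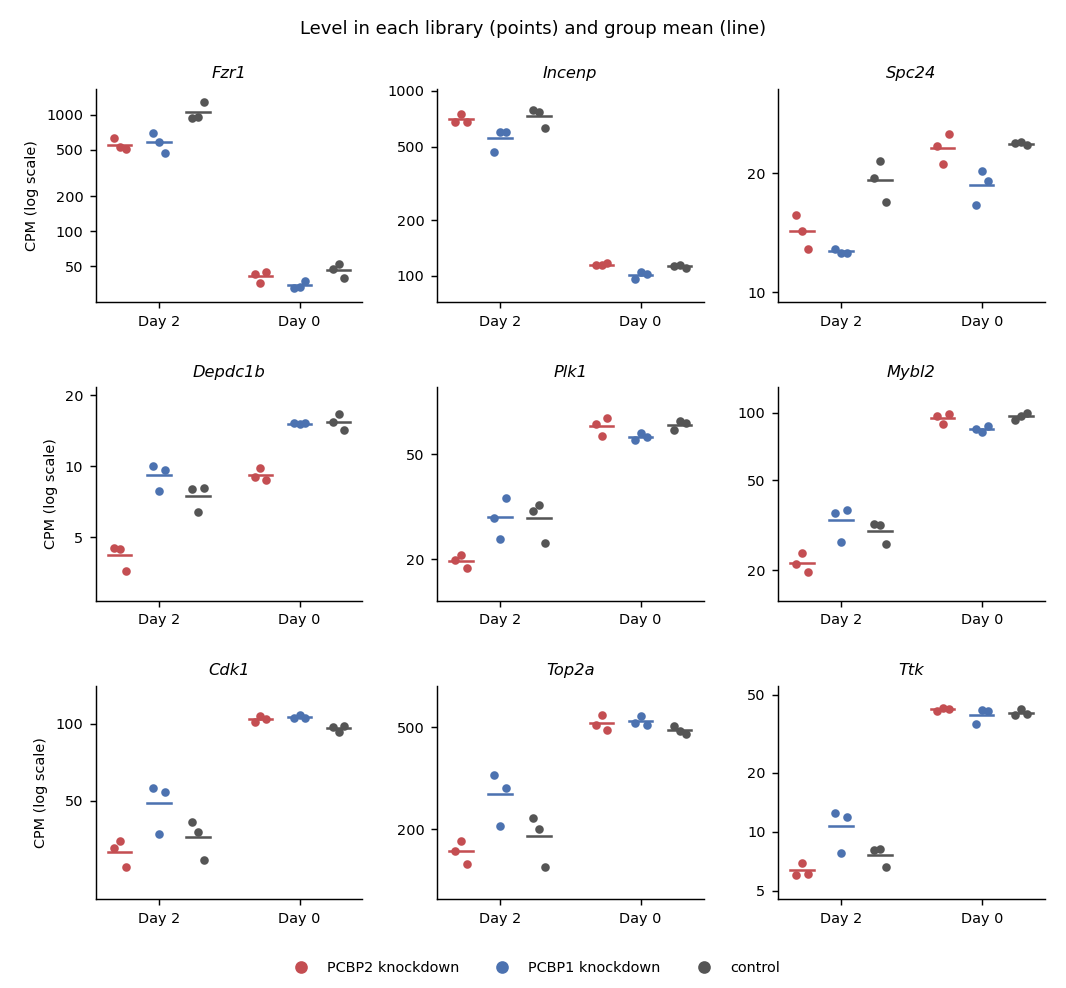
CPM of 9 members in each library (y axis, log scale) at Day 2 (left in each panel) and Day 0 (right); points are libraries, lines group means, and colours the PCBP2 knockdown, PCBP1 knockdown and controls. Fzr1 and Incenp are higher at Day 2, the others lower, and Depdc1b is lower in the PCBP2 knockdown on both days.

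Centromere and kinetochore genes fell least, with medians of -0.70 in the PCBP2 knockdown, -0.43 in the PCBP1 knockdown and -0.47 in controls. Spc24 is a subunit of the Ndc80 complex that binds microtubules. At Day 2 Spc24 had 15.7, 14.3 and 12.9 CPM in the PCBP2 knockdown, 12.9, 12.6 and 12.6 CPM in the PCBP1 knockdown and 19.4, 21.5 and 16.9 CPM in controls. At Day 0 Spc24 had 23.4, 21.1 and 25.1 CPM in the PCBP2 knockdown, 16.6, 20.3 and 19.1 CPM in the PCBP1 knockdown and 23.8, 23.9 and 23.5 CPM in controls. At Day 2 all 6 knockdown libraries lay below all 3 controls, and the PCBP1 knockdown was below controls at Day 0 too. Spc24 fell at Day 2 in the PCBP2 knockdown (-0.44, SE 0.12, edgeR adjusted p = 0.0368; not called without any 1 of 9 libraries) and in the PCBP1 knockdown (-0.61, SE 0.12, edgeR adjusted p = 0.00163), and the call in the PCBP1 knockdown held under every alternative tried (-0.38 to -0.70, largest adjusted p 0.0339). The other subunits of the same complex were not called lower in the PCBP1 knockdown. At Day 2 Nuf2 had 24.5, 29.1 and 23 CPM in the PCBP2 knockdown, 42.1, 29.2 and 37.2 CPM in the PCBP1 knockdown and 32.1, 25.4 and 23.5 CPM in controls. Day 0 Nuf2 levels were 51.8 to 60.7 CPM. At Day 2 Ndc80 had 15.8, 14.9 and 14.4 CPM in the PCBP2 knockdown, 22.7, 16.9 and 18.7 CPM in the PCBP1 knockdown and 20.6, 16.1 and 14.4 CPM in controls. Day 0 Ndc80 levels were 32.3 to 38.7 CPM. At Day 2 Spc25 had 17.9, 21 and 17.5 CPM in the PCBP2 knockdown, 25.9, 22.8 and 22.9 CPM in the PCBP1 knockdown and 20.9, 20.8 and 17.3 CPM in controls. Day 0 Spc25 levels were 25 to 28.7 CPM. Nuf2 rose in the PCBP1 knockdown (0.42, SE 0.13, edgeR adjusted p = 0.0331; adjusted p 0.171 without LUC-1), Spc25 lay above all controls in that group without passing the test (0.28, SE 0.11, edgeR adjusted p = 0.103), and Ndc80 overlapped the controls.

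Cenpf is a large protein of the outer kinetochore. At Day 2 Cenpf had 57.6, 64.7 and 53.3 CPM in the PCBP2 knockdown, 95.4, 63.3 and 88.6 CPM in the PCBP1 knockdown and 74.5, 61.5 and 49.6 CPM in controls. Day 0 Cenpf levels were 68.3 to 83 CPM. Cenpf was the only member not called with day in controls (-0.17, SE 0.13, edgeR adjusted p = 0.234), and Cenpf, Spc25, Hmmr and Ccnb2 were the 4 not called in the PCBP1 knockdown, where Cenpf had 0.22 (SE 0.13). It rose in the PCBP1 knockdown at Day 2 (0.41, SE 0.14, edgeR adjusted p = 0.0456; adjusted p 0.264 without LUC-1). Cenpe is a kinesin that moves chromosomes to the spindle equator. At Day 2 Cenpe had 85.8, 90.1 and 80.5 CPM in the PCBP2 knockdown, 110, 90.3 and 102 CPM in the PCBP1 knockdown and 100, 89 and 77.7 CPM in controls. Day 0 Cenpe levels were 114 to 140 CPM. Cenpa, the histone H3 variant that marks centromeres, ranged from 45.9 to 68.6 CPM at Day 2 and from 74.3 to 91.2 CPM at Day 0 and was called in no knockdown comparison with all libraries. Of this group Nuf2, Cenpf and Spc25 were lower in the PCBP2 than in the PCBP1 knockdown (edgeR adjusted p 0.0146, 0.0196 and 0.046), and Cenpe and Ndc80 also were without LUC-1 (0.0351 and 0.0164).

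Spindle motors and assembly factors fell with a median of -1.15 in the PCBP2 knockdown, -0.77 in the PCBP1 knockdown and -0.98 in controls, all 6 of them except Hmmr in the PCBP1 knockdown (-0.17, SE 0.10). Kif11 is the kinesin that pushes spindle poles apart. At Day 2 Kif11 had 63.9, 66.9 and 53.8 CPM in the PCBP2 knockdown, 97.6, 76.4 and 95 CPM in the PCBP1 knockdown and 80.9, 67.7 and 58.2 CPM in controls. Day 0 Kif11 levels were 139 to 162 CPM. Kif18a is a kinesin that limits chromosome oscillation. At Day 2 Kif18a had 13.2, 13.4 and 11.9 CPM in the PCBP2 knockdown, 18.5, 14 and 18.7 CPM in the PCBP1 knockdown and 15.3, 12.2 and 13 CPM in controls. Day 0 Kif18a levels were 29 to 32.7 CPM. Kif11 rose in the PCBP1 knockdown (0.38, SE 0.12, edgeR adjusted p = 0.0313; adjusted p 0.192 without LUC-1), and both were lower in the PCBP2 than in the PCBP1 knockdown (edgeR adjusted p 0.00415 and 0.0282). Kif2c is a microtubule depolymerase. At Day 2 Kif2c had 17.7, 18.4 and 16.4 CPM in the PCBP2 knockdown, 28.6, 18.3 and 21.6 CPM in the PCBP1 knockdown and 23.3, 20 and 18.7 CPM in controls. Day 0 Kif2c levels were 53.3 to 62.7 CPM. Kif4 is a chromosome-bound kinesin. At Day 2 Kif4 had 31.9, 32.4 and 31.8 CPM in the PCBP2 knockdown, 44.5, 32.5 and 44.3 CPM in the PCBP1 knockdown and 40.7, 31.2 and 28.6 CPM in controls. Day 0 Kif4 levels were 57.4 to 66.3 CPM. Hmmr is a microtubule-binding spindle protein. At Day 2 Hmmr had 111, 115 and 105 CPM in the PCBP2 knockdown, 147, 119 and 139 CPM in the PCBP1 knockdown and 128, 108 and 94.8 CPM in controls. Day 0 Hmmr levels were 144 to 159 CPM. Each of these 3 overlapped the controls in the PCBP1 knockdown, and each was lower in the PCBP2 than in the PCBP1 knockdown without LUC-1 but not with it (edgeR adjusted p 0.0237, 0.026 and 0.0131). Tpx2, which activates Aurora A on the spindle, ranged from 81.3 to 107 CPM at Day 2 and from 156 to 183 CPM at Day 0. Exons of Kif18a overlap Mettl15 and those of Kif4 overlap Pdzd11, both on the other strand.

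All 7 cytokinesis genes fell with day in each condition, with medians of -1.12 in the PCBP2 knockdown, -0.68 in the PCBP1 knockdown and -0.76 in controls. Depdc1b is a DEP-domain protein. At Day 2 Depdc1b had 4.51, 4.47 and 3.6 CPM in the PCBP2 knockdown, 10, 7.83 and 9.68 CPM in the PCBP1 knockdown and 8.02, 6.39 and 8.09 CPM in controls. At Day 0 Depdc1b had 9.02, 9.79 and 8.78 CPM in the PCBP2 knockdown, 15.2, 15.1 and 15.2 CPM in the PCBP1 knockdown and 15.4, 16.6 and 14.3 CPM in controls. The 3 PCBP2 hairpins lay below every other library of the same day on both days. Depdc1b fell in the PCBP2 knockdown over control at Day 2 (-0.84, SE 0.15, edgeR adjusted p = 0.00278; adjusted p 0.00529 without LUC-1) and at Day 0 (-0.75, SE 0.13, edgeR adjusted p = 0.0197), and it was lower than in the PCBP1 knockdown at Day 2 (-1.13, SE 0.15, edgeR adjusted p = 6.21e-05) and at Day 0 (-0.72, SE 0.13, edgeR adjusted p 0.0084). It was the only member called in either knockdown at Day 0 with all 18 libraries. The Day 0 change was -0.69 to -0.81 over all alternatives. It was not called when 1 of 8 Day 0 libraries was left out (SCR-1, SCR-2 or any of the 6 knockdown libraries; adjusted p up to 0.326), and its adjusted p was 0.00082 in the fit on the 9 Day 0 libraries. The Day 2 call was lost in the fits on the Day 2 libraries alone (adjusted p up to 0.12).

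Prc1 is the protein that bundles microtubules of the central spindle. At Day 2 Prc1 had 62.3, 64.3 and 56 CPM in the PCBP2 knockdown, 103, 66.6 and 93 CPM in the PCBP1 knockdown and 74.5, 65.2 and 65.4 CPM in controls. Day 0 Prc1 levels were 108 to 129 CPM. Anln is anillin, of the contractile ring. At Day 2 Anln had 20.2, 22 and 21.5 CPM in the PCBP2 knockdown, 42.8, 19.2 and 34.6 CPM in the PCBP1 knockdown and 29.4, 25.2 and 22.8 CPM in controls. Day 0 Anln levels were 52.1 to 65.6 CPM. Ect2 is the exchange factor that activates RhoA at the cell equator. At Day 2 Ect2 had 32, 34.8 and 33.1 CPM in the PCBP2 knockdown, 52.8, 35 and 40.9 CPM in the PCBP1 knockdown and 40.3, 30.6 and 30.8 CPM in controls. Day 0 Ect2 levels were 54.4 to 63.8 CPM. For all 3, PCBP1 hairpins 1 and 4 were the highest Day 2 libraries and hairpin 3 lay within the controls for Prc1 and Ect2 and below them for Anln. Prc1 rose in the PCBP1 knockdown (0.36, SE 0.12, edgeR adjusted p = 0.043; adjusted p 0.151 without LUC-1), and Anln had 0.32 (SE 0.18, edgeR adjusted p = 0.28). Kif23 is the motor of centralspindlin. At Day 2 Kif23 had 29.7, 31 and 27.7 CPM in the PCBP2 knockdown, 43.4, 31.7 and 42.9 CPM in the PCBP1 knockdown and 36.7, 33.8 and 39.5 CPM in controls. Day 0 Kif23 levels were 59.3 to 66.1 CPM. Kif20a is a kinesin of the central spindle. At Day 2 Kif20a had 70.1, 69.3 and 60.5 CPM in the PCBP2 knockdown, 80.3, 67.5 and 73.9 CPM in the PCBP1 knockdown and 75.2, 72.3 and 75.9 CPM in controls. Day 0 Kif20a levels were 110 to 128 CPM. Both lay below all controls in the PCBP2 knockdown without passing the test, Kif23 with -0.31 (SE 0.11, edgeR adjusted p = 0.105) and Kif20a with -0.16 (SE 0.09, edgeR adjusted p = 0.365). Prc1, Anln and Kif23 were lower in the PCBP2 than in the PCBP1 knockdown (edgeR adjusted p 0.00523, 0.0394 and 0.0155), and Ect2 was so without LUC-1 but not with it (0.0225). Racgap1, the partner of Kif23, ranged from 28.6 to 39.6 CPM at Day 2 and from 53.7 to 66.6 CPM at Day 0. Exons of Prc1 overlap Rccd1 and those of Kif20a overlap Cdc23, itself a subunit of the anaphase-promoting complex, on the other strand.

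Among the genes of mitotic exit, the coactivators of the anaphase-promoting complex moved in opposite directions with day. Fzr1 encodes Cdh1, the coactivator that works late in mitosis and in G1. At Day 2 Fzr1 had 629, 527 and 508 CPM in the PCBP2 knockdown, 700, 590 and 475 CPM in the PCBP1 knockdown and 937, 956 and 1290 CPM in controls. At Day 0 Fzr1 had 42.7, 36 and 44.5 CPM in the PCBP2 knockdown, 32.6, 33 and 36.9 CPM in the PCBP1 knockdown and 47, 52.3 and 39.6 CPM in controls. Cdc20 is the coactivator that works in metaphase and anaphase. At Day 2 Cdc20 had 43.8, 38.2 and 37.6 CPM in the PCBP2 knockdown, 53.5, 40.1 and 52.6 CPM in the PCBP1 knockdown and 53.5, 47 and 43.1 CPM in controls. Day 0 Cdc20 levels were 94.1 to 109 CPM. Fzr1 rose more than any other member, by 3.76 (SE 0.16, edgeR adjusted p = 7.6e-16) in the PCBP2 knockdown, 4.10 (SE 0.16) in the PCBP1 knockdown and 4.52 (SE 0.16) in controls, while Cdc20 fell, with -1.40 (SE 0.11), -1.01 (SE 0.11) and -1.12 (SE 0.11). At Day 2 every knockdown library had less Fzr1 than every control. Fzr1 fell in the PCBP2 knockdown (-0.94, SE 0.14, edgeR adjusted p = 0.00111) and in the PCBP1 knockdown (-0.85, SE 0.14, edgeR adjusted p = 0.00042), and without LUC-1, its highest library, with -0.83 and -0.70 (edgeR adjusted p 0.00168 and 0.00183). The call held under all 26 alternatives in the PCBP1 knockdown (-0.50 to -0.99) and under 25 of 26 in the PCBP2 knockdown (-0.66 to -1.06), the exception being the Day 2 libraries without LUC-1 (adjusted p 0.052). At Day 0 the PCBP1 knockdown lay below the controls with -0.44 (SE 0.14, edgeR adjusted p = 0.188). Exons of Fzr1 overlap those of Mfsd12 on the other strand, and Mfsd12 moved with it: its log2 fold change was 4.2 (SE 0.13) with day in controls, -0.71 (SE 0.12) in the PCBP2 and -1.19 (SE 0.12) in the PCBP1 knockdown at Day 2. Over the 18 libraries Fzr1 had 142878 reads and Mfsd12 52109, and the part of shared reads was not tested. Exons of Cdc20 overlap Elovl1 on the other strand, with 61485 and 47270 reads, and those of Ube2c overlap Tnnc2, with 78780 and 327.

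Ube2c is the ubiquitin-conjugating enzyme that serves the anaphase-promoting complex. At Day 2 Ube2c had 251, 224 and 317 CPM in the PCBP2 knockdown, 271, 257 and 287 CPM in the PCBP1 knockdown and 210, 282 and 332 CPM in controls. Day 0 Ube2c levels were 57.5 to 72.5 CPM. Pttg1 is securin, the inhibitor of separase. At Day 2 Pttg1 had 109, 84.4 and 76.5 CPM in the PCBP2 knockdown, 98.9, 101 and 96.9 CPM in the PCBP1 knockdown and 85.7, 71.3 and 82.4 CPM in controls. Day 0 Pttg1 levels were 29 to 32.8 CPM. On the TMM scale Ube2c and Pttg1 rose with day in each condition, and they overlapped the controls in the PCBP2 knockdown. In the PCBP1 knockdown Pttg1 lay above all controls without passing the test (0.31, SE 0.11, edgeR adjusted p = 0.0607). Ube2c rose by 2.03 (SE 0.13, edgeR adjusted p = 7.4e-13) in controls and by 0.38 (SE 0.12) with library totals, and Pttg1 by 1.42 (SE 0.11, edgeR adjusted p = 1.72e-11) in controls, but with library totals the value of Pttg1 was -0.21 (SE 0.11) and not called (adjusted p 0.064). In TPM, Pttg1 averaged 76.8 ± 12 TPM in controls at Day 2 and 116 ± 1.1 TPM at Day 0. Espl1 is separase, the protease that opens cohesin. At Day 2 Espl1 had 25.9, 22 and 17.9 CPM in the PCBP2 knockdown, 27.8, 20.4 and 32.1 CPM in the PCBP1 knockdown and 28.8, 26.3 and 18.7 CPM in controls. At Day 0 Espl1 had 82.7, 82 and 86.7 CPM in the PCBP2 knockdown, 66.1, 70 and 65.1 CPM in the PCBP1 knockdown and 82.5, 86.8 and 79.7 CPM in controls. Espl1 fell with day, with -1.75 (SE 0.15) in controls, and at Day 0 the PCBP1 knockdown lay below the other 6 libraries, with -0.31 (SE 0.14, edgeR adjusted p = 0.46) in the fit on all libraries and -0.30 (SE 0.06, edgeR adjusted p = 0.00572) in the fit on the 9 Day 0 libraries.

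The 2 transcription factors fell with day. Mybl2 is B-Myb, the MuvB partner that acts on G2 and mitosis genes. At Day 2 Mybl2 had 21.2, 23.9 and 19.5 CPM in the PCBP2 knockdown, 36, 26.7 and 37 CPM in the PCBP1 knockdown and 31.9, 31.6 and 26.1 CPM in controls. Day 0 Mybl2 levels were 81.8 to 99.6 CPM. Foxm1 is the forkhead factor of the same genes. At Day 2 Foxm1 had 10.4, 16.8 and 13.8 CPM in the PCBP2 knockdown, 21, 15.9 and 19 CPM in the PCBP1 knockdown and 17.9, 16.8 and 19.1 CPM in controls. Day 0 Foxm1 levels were 37.8 to 44.7 CPM. All 3 PCBP2 hairpins lay below all controls for Mybl2, and Foxm1 overlapped them. Mybl2 fell in the PCBP2 knockdown over control (-0.47, SE 0.12, edgeR adjusted p = 0.0225, and 0.00726 without LUC-1). This call was lost in the fit on the Day 2 libraries alone, and when single libraries such as Day 2 control SCR-1 or SCR-2 were left out. On the Day 2 libraries without LUC-1 Mybl2 had -0.53 (SE 0.16, edgeR adjusted p = 0.163). Foxm1 had -0.38 over control (SE 0.13, edgeR adjusted p = 0.104). Both genes were lower in the PCBP2 than in the PCBP1 knockdown, Mybl2 with -0.63 (SE 0.12, edgeR adjusted p = 0.00177) and Foxm1 with -0.44 (SE 0.13, edgeR adjusted p = 0.0325).

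At Day 0 few members differed. In the PCBP2 knockdown 1 member fell and 0 rose (0.0229% of all genes lower, 0% higher), in the PCBP1 knockdown 0 fell or rose (0.857% and 0.0343%), and between the knockdowns 1 was lower and 0 higher in the PCBP2 knockdown (0.0171% and 0.24%). At an unadjusted p under 0.05, where all genes were not counted, there were 1, 3 and 3. The counts were the same without the Day 2 LUC-1 control, where 0.0223% and 0% of all genes were called in the PCBP2 knockdown and 1.28% and 0.151% in the PCBP1 knockdown, and 0.0558% and 0.452% between them. In the fit on the 9 Day 0 libraries, where the spread between libraries was smaller (common dispersion 0.00749, against 0.0293 at Day 2), 4 members fell in the PCBP1 knockdown (5.47% of all genes lower, 1.57% higher): Espl1 with -0.30 (SE 0.06, edgeR adjusted p = 0.00572), Spc24 with -0.34 (SE 0.08, edgeR adjusted p = 0.0245), Fzr1 with -0.43 (SE 0.10, edgeR adjusted p = 0.0275) and Aurkb with -0.21 (SE 0.05, edgeR adjusted p = 0.0269). In the same fit Depdc1b fell in the PCBP2 knockdown (0.038% of all genes lower, 0% higher), and against the PCBP1 knockdown Depdc1b was lower and Espl1 higher (0.45% and 1.53%).

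The change of a knockdown effect between the days was called for no member. With edgeR 0 members were called for the PCBP2 effect (0% of all genes either way) and 0 for the PCBP1 effect (0.131% higher and 0.269% lower). For each effect 8 members had an unadjusted p under 0.05, and the share of all genes at that threshold was not counted. The PCBP2 effect was negative in 43 members (median -0.26, all genes -0.04). The PCBP1 effect was positive in 41 (median 0.24, all genes 0.04). Both effects use the same controls, and the members are not independent of each other. With DESeq2 the PCBP2 effect was called for Fzr1. The same change for the PCBP2 against the PCBP1 knockdown, a comparison added after seeing the data, was called lower for 5 members, against 1.11% of all genes called lower and 0.394% higher, with a median of -0.45 over the 44 and -0.05 over all genes. They were Mybl2, Aurka, Ttk, Aurkb and Plk1. Without Day 2 LUC-1 the count was 15 (3.98% of all genes lower), without Day 2 PCBP1 hairpin 3 it was 30 (5.44% lower), and it was 0 without any 1 of 6 libraries, hairpins 1 of both Day 0 knockdowns and hairpins 1 and 4 of both Day 2 knockdowns (0.195% to 0.678% of all genes lower). It was 1 or 2 without any 1 of 6 other Day 0 libraries, and Mybl2 alone was called with library totals (0.606% of all genes lower) or with a block on the hairpin (0.949%).

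The direct comparison at Day 2 also moved with single libraries. Its count of 24 was 12 without PCBP2 hairpin 4 (4.2% of all genes lower, 1.87% higher) and 12 without PCBP1 hairpin 1 (3.94% and 1.9%). It was 13 without PCBP1 hairpin 4 (5.65% and 2.62%) and 38 without PCBP1 hairpin 3 (12.6% and 4.46%), so the share of all genes called lower moved the same way. In the fit on the 9 Day 2 libraries 4 members were lower and 0 higher (1.63% and 1.8% of all genes), Depdc1b with -1.12 (SE 0.19, edgeR adjusted p = 0.00764), Top2a with -0.73 (SE 0.18, edgeR adjusted p = 0.0406), Mybl2 with -0.62 (SE 0.16, edgeR adjusted p = 0.045) and Ttk with -0.75 (SE 0.20, edgeR adjusted p = 0.0482). The count of 6 in the PCBP2 knockdown over control was 2 without PCBP2 hairpin 4 (2.23% of all genes lower), without SCR-1 (4.71%) or without SCR-2 (3.95%), in each case Depdc1b and Fzr1. The count of 12 in the PCBP1 knockdown was 2 without hairpin 1 (3.09% of all genes higher, 5.17% lower), 3 without hairpin 4 (3.16% and 5.35%) or LUC-1 (2.84% and 5.52%), 5 without SCR-2 (4.97% and 5.83%) and 23 without hairpin 3 (8.12% and 6.67%).

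Splicing was read from the authors' deposited tables of local splicing variations, in which each junction has a percent spliced in (PSI) for the pooled libraries of a group, the change in PSI and the probability that the change is at least 20 points. The tables hold 1 value per group, so there is no error over libraries, and both tables of a day use the same pooled controls. All 44 members had variations, 686 and 759 of them in the PCBP2 tables of Day 2 and Day 0 and 713 and 758 in the PCBP1 tables. Past a probability of 0.90 there was 1 member variation in the PCBP2 table of Day 2 (0.118% of all variations) and 2 in the PCBP1 table (0.286%), all in Fzr1, and 0 in the Day 0 tables (0.0221% for PCBP2 and 0.0772% for PCBP1). The Fzr1 variation with the largest Day 2 change, described next, was not among those listed at Day 0.

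Fzr1 lies on chromosome 10, minus strand, and its GENCODE M21 transcript used here to number exons has 14. Exon 2 spans chr10:81371345-81371454 (GRCm38, 110 bases) and holds the start codon and 69 coding bases, which are shown because the largest change skips them, with the start codon in capitals (chr10:81371345-81371413, minus strand, GENCODE M21).
Fzr1 exon 2: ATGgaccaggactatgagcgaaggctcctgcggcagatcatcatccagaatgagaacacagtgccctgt
In the authors' deposited tables for Day 2, the share of junctions leaving exon 1 that skipped exon 2 and joined exon 3 was 8.9% in the PCBP2 knockdown, 65.5% in the PCBP1 knockdown and 7.5% in controls. The deposited change was 59.4 points in the PCBP1 knockdown (probability 1.0) and -1.3 points in the PCBP2 knockdown. The junction from exon 1 to exon 2 took 10.6% in the PCBP2 knockdown (change -31.9, probability 0.945), 9.4% in the PCBP1 knockdown (change -34.0, probability 0.991) and 42.3% in controls. So among junctions leaving exon 1 the share joined to exon 2 was low in both knockdowns. The skip of exon 2 was high among them in the PCBP1 knockdown. In the authors' deposited table for the PCBP2 knockdown the junction from exon 1 to a site in the intron after it, at position 81374203, took 54.3% against 30.0% in controls (change 18.1, probability 0.539), and 22.6% in the PCBP1 knockdown. Seen from exon 3, the junction that skips exon 2 was 0.2% of entries in the PCBP2 knockdown (change 0.0). It was 3.5% in the PCBP1 knockdown (change 0.0, probability 1.4e-21) and 0.4% in controls, so few junctions entering exon 3 came from exon 1. No variation leaving exon 1 with the junctions to exon 2 or exon 3 was listed at Day 0. That view therefore cannot be read at Day 0, and from exon 3 the skip was 0.0% there in all groups.

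Exon 9 changed too. It spans chr10:81369338-81369440 (GRCm38, 103 bases, all coding and not a multiple of 3), shown in capitals after the last 60 bases of the intron before it, since PCBP proteins bind C-rich RNA (chr10:81369338-81369500, minus strand).
Fzr1 exon 9: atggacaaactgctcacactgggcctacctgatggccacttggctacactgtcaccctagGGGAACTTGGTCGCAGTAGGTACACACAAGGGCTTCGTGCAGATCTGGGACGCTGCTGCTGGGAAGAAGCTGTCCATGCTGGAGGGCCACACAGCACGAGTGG
Of the 60 intron bases 55.0% are C or T. That share does not measure C alone, it has no background from other introns, and binding was not tested. In the authors' deposited tables for Day 2, the junction from exon 8 that skips exon 9 was 12.6% of entries to exon 10 in the PCBP2 knockdown (change 0.2), 37.2% in the PCBP1 knockdown (change 25.6, probability 0.917) and 11.8% in controls. The junction from exon 9 to exon 10 was 85.4%, 60% (change -25.5, probability 0.869) and 85.3%. Seen from exon 8 the skip was smaller, 5.5% in the PCBP2 knockdown, 18.8% in the PCBP1 knockdown (change 11, probability 0.000925) and 6.6% in controls. At Day 0 the exon 9 skip was at most 2.7% in these tables.

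The transcript estimates give a second view per library. Annotated retained-intron transcripts of Fzr1 held 20%, 21.8% and 22.1% of Fzr1 TPM in the PCBP2 knockdown, 30.1%, 28.5% and 31.0% with PCBP1 knockdown and 18.4%, 18.1% and 15.5% in controls at Day 2. At Day 0 they held 13.9%, 16% and 14.1% in the PCBP2 knockdown, 19.5%, 12.3% and 19.3% with PCBP1 knockdown and 12.9%, 9.79% and 12.5% in controls. At Day 2 the 3 groups did not overlap, with the PCBP1 knockdown highest, also with LUC-1 (15.5%, the lowest control) left out. The mean differences given next include LUC-1. The mean difference from control at Day 2 was 3.96 points in the PCBP2 knockdown and 12.5 points in the PCBP1 knockdown, and -8.58 points between PCBP2 and PCBP1, each with p = 0.1 in a two-sided exact permutation test, the smallest p that 3 against 3 libraries allow (0.125 adjusted over 5 comparisons). At Day 0 the differences were 2.9 points (p = 0.1, exact permutation) and 5.29 points (p = 0.3, exact permutation).

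**Figure D5:**
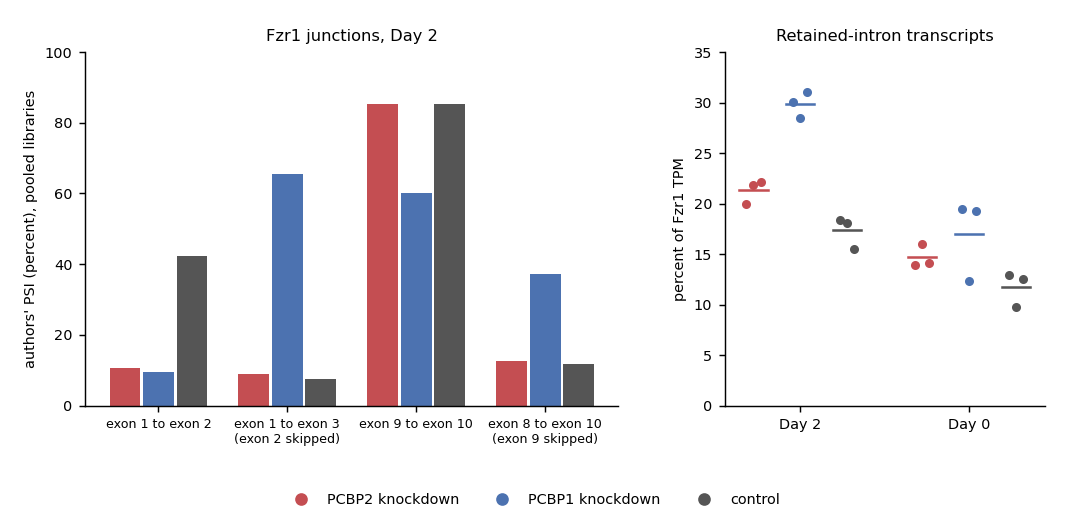
Left, the authors' PSI (y axis, percent, pooled libraries, no error given) of 4 Fzr1 junctions at Day 2, the first pair as a share of junctions leaving exon 1 and the second pair of junctions entering exon 10; right, the percent of Fzr1 TPM in retained-intron transcripts in each library (points, with group means) at Day 2 and Day 0. Colours are the PCBP2 knockdown, PCBP1 knockdown and controls. Exon 2 skipping is 8.9%, 65.5% and 7.5% of junctions leaving exon 1. It is 0.2%, 3.5% and 0.4% of junctions entering exon 3 (not drawn).

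No other member passed that probability. In the authors' deposited tables at Day 2, 4 member variations changed by at least 10 points in the PCBP2 knockdown (0.583%, against 1.61% of all variations) and 8 in the PCBP1 knockdown (1.12%, against 2.34%), and 1 in each knockdown at Day 0 (0.132% each, against 0.377% and 0.643%). The largest outside Fzr1 was in Kif18a, where 1 junction was 98.6% in the PCBP2 knockdown and 98.7% in the PCBP1 knockdown against 73.0% in controls (change 24.8 in each, probability 0.764 and 0.766). A junction of Cdk1 was 94.6% in the PCBP1 knockdown against 74.3% in controls (change 18.3, probability 0.52). A junction of Spc25 was 28.6% in the PCBP2 knockdown against 8.0% in controls (change 17.1, probability 0.462).

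Other genes of the same machinery, in lists chosen by function, changed with day as well, against 42.4% of all genes called lower and 40.4% higher in controls. In controls 22 of 29 other kinetochore and checkpoint genes fell and 3 rose (median -1.02), 14 of 18 condensin and cohesin genes fell and 4 rose (-1.02), 12 of 20 other spindle and midbody genes fell and 5 rose (-0.54), 11 of 12 other mitotic entry kinases and phosphatases fell and 1 rose (-1.41), and 13 of 17 genes of the anaphase-promoting complex and its partners fell and 2 rose (-1.18). The phosphatase Cdc25b, an activator of Cdk1, rose by 3.08 (SE 0.13) and Cdc25a fell by 2.39 (SE 0.15). Gtse1, a microtubule-binding protein of G2 and mitosis, rose by 3.12 (SE 0.15) while Cep55, a midbody scaffold of abscission, fell by 3.87 (SE 0.21). The largest subunit of the anaphase-promoting complex, Anapc1, fell by 2.41 (SE 0.13), in contrast to Fzr1. Wapl and Nipbl, which release and load cohesin, rose by 2.19 (SE 0.10) and 1.92 (SE 0.10).

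At Day 2 some genes of these lists were lower with PCBP2 than with PCBP1 knockdown, against 7.5% of all genes. Lower were 10 of 29 kinetochore and checkpoint genes (median -0.36), 10 of 20 spindle and midbody genes (-0.35), 6 of 18 condensin and cohesin genes (-0.27), 3 of 12 mitotic entry genes (-0.38) and 1 of 17 anaphase-promoting complex genes (-0.19), and 0 were higher. Without LUC-1 the counts were 15, 11, 11, 6 and 3 (11.6% of all genes lower), and in the fit on the 9 Day 2 libraries 4, 0, 2, 1 and 1 (1.63%). Zwint, a kinetochore protein, had -0.77 (SE 0.11, edgeR adjusted p = 0.000204) and Smc2, the core of condensin, -0.72 (SE 0.13, adjusted p = 0.000993). Cdc25b was lower than control in both knockdowns, with -1.10 (SE 0.12) in the PCBP2 and -0.71 (SE 0.12) in the PCBP1 knockdown (edgeR adjusted p = 2.09e-05 and 0.000298). The 3 comparisons at Day 2 share their libraries pairwise and are not independent.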

How the data were processed

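RNA from 18 libraries in 6 groups of 3 was sequenced after a TruSeq RNA kit, per the labels' protocols. The submitters' processing notes name FastQC 0.11.9, Trim Galore 1.46.0, STAR 2.5.3a, SAMtools 1.9, Salmon 0.11.3 and the GRCm38 build; the splicing tool and the use of strand are not given in the sources used here. The authors deposited estimated counts (expected counts) and TPM per transcript, and 4 splicing tables with PSI as a fraction, a change in PSI and its probability for pooled groups. Estimated counts were summed per gene (GENCODE M21 symbols) and rounded; 1303 of 111706 transcripts, with 0.275% to 0.579% of a library's reads, matched no gene and were left out. Libraries held 27033440 to 54096339 estimated reads.

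All 18 libraries entered 1 edgeR quasi-likelihood fit (R 4.3.3, edgeR 4.0.16, limma 3.58.1) with TMM factors, the default expression filter, robust estimates and 12 residual degrees of freedom, and Benjamini-Hochberg adjusted p-values over 17500 genes, called under 0.05. The fit was also run on simulated data, in which each gene had the same spread on both days. The simulation therefore says nothing about the unequal spread of the days (common dispersion 0.00749 at Day 0 and 0.0293 at Day 2). Alternatives were DESeq2 1.42.0, other scalings, no filter, removal of the GC trend, 1 day alone, replicate blocks and each library left out. Members and lists were chosen with earlier results of these data known. Genes are named where a knockdown comparison called them in the fit on all libraries, without Day 2 LUC-1 or on 1 day, where splicing passed the threshold, and for the 2 smallest and 2 largest day changes per role. Day 0 values are given as a range over 9 libraries unless a Day 0 comparison or the day change turns on the gene. Other list genes are the smallest in p, at most 4 per list.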

Additional observations from a re-analysis of the deposited data

Results flagged for a closer look

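For 5 members the difference between the PCBP2 and the PCBP1 knockdown was itself called different between Day 2 and Day 0 in the fit on all libraries, by the interaction test in edgeR, a comparison added after seeing the data. The change in log2 fold change (PCBP2 over PCBP1, Day 2 minus Day 0) was -0.85 (SE 0.19, adjusted p = 0.0292) for Ttk, -0.79 (SE 0.16, adjusted p = 0.0187) for Mybl2 and -0.75 (SE 0.18, adjusted p = 0.0371) for Aurkb. It was -0.69 (SE 0.18, adjusted p = 0.047) for Plk1 and -0.58 (SE 0.14, adjusted p = 0.0364) for Aurka. In all 5 the value of PCBP2 over PCBP1 was lower at Day 2 (-0.75 to -0.46) than at Day 0 (0.09 to 0.21), and none of the 5 was called without any 1 of 6 libraries, among them Day 2 PCBP1 hairpins 1 and 4. With a block on the hairpin Mybl2 alone was called (adjusted p 0.0285, the other 4 from 0.0537 to 0.0742), and likewise with library totals (0.043, the other 4 from 0.0541 to 0.0882).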

How the results depend on the processing

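Counts of called members were 6 in the PCBP2 and 12 in the PCBP1 knockdown over control and 24 between the knockdowns at Day 2, and 1, 0 and 1 at Day 0. Shares of all genes called stand in brackets, higher then lower. With library totals they were 3 for PCBP2 (5.57% and 1.25%) and 33 for PCBP1 (19.8% and 3.59%) at Day 2, and 1 in the day-by-knockdown comparison of PCBP2 against PCBP1 (0.206% and 0.606%), which had 5. Without an expression filter the day change of the PCBP2 effect had 1 (0.143% and 0.405%), PCBP1 at Day 0 had 1 (0.24% and 1.31%) and the comparison of 5 had 14 (0.623% and 1.76%). After removal of the GC trend PCBP2 at Day 2 had 3 (0.451% and 1.73%), PCBP1 2 (3.83% and 6.15%) and the comparison of 5 had 9 (0.64% and 1.74%). DESeq2 gave 1 for the day change of the PCBP2 effect (0.144% and 0.854%) and 21 for the comparison of 5 (2.96% and 8.15%). On 9 libraries of a day PCBP2 had 1 at Day 2 (0.033% and 0.403%), PCBP1 2 at Day 2 (1.92% and 4.24%) and 4 at Day 0 (1.57% and 5.47%), and PCBP2 against PCBP1 4 at Day 2 (1.8% and 1.63%) and 2 at Day 0 (1.53% and 0.45%). A single day without its luciferase control gave PCBP2 0 at Day 2 with edgeR (0.0128% and 0.0964%), and PCBP1 2 at Day 2 (1.33% and 2.58%) and 3 at Day 0 (2.27% and 5.35%). For PCBP2 at Day 2 in that fit 8 members had an unadjusted p under 0.05, where all genes were not counted. Without both luciferase controls, an alternative chosen after seeing the data, PCBP1 had 3 at Day 2 (2.86% and 5.25%) and 1 at Day 0 (0.134% and 1.34%), and the comparison of 5 had 12 (1.07% and 2.71%). The cause was not tested.

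Leaving out 1 library gave 2 to 9 for PCBP2 and 2 to 23 for PCBP1 at Day 2, and 12 to 38 between them. Shares of all genes stand above for the fits named there, and between the knockdowns they moved with the count. These ranges alone do not show a change particular to the members. At Day 0 the ranges were 0 to 1, 0 to 0 and 0 to 1. For the day change they were 44 to 44 in PCBP2, 40 to 42 in PCBP1 and 42 to 44 in controls. With all libraries the day change was called for 40.9% and 42.1% of all genes in PCBP2 (higher, then lower). The shares were 40.3% and 41.7% in PCBP1 and 40.4% and 42.4% in controls. The day change of the PCBP2 effect had 0 to 0, that of the PCBP1 effect 0 to 1 and the comparison of 5 had 0 to 30. Pttg1 turned with library totals, to -0.21 (adjusted p = 0.064) for the day change in controls. Of the values for single members that were tallied (all day changes, and knockdown values called in the fit on all libraries, so gains of other knockdown values are not in it), 4205 kept direction and side of the threshold, 345 lost the call, 18 gained one and 1 reversed.

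The labels do not say whether hairpin numbers pair the samples. In deviations from group means, same hairpins correlated at -0.01 to 0.10 across days, and the highest value with another hairpin was -0.04 to 0.03. Same numbers correlated at -0.06 to 0.14 between knockdowns, against 0.01 to 0.12 for the highest other number. Values this low cannot show whether cultures were shared. With a replicate block on the number, PCBP2 against PCBP1 had 7 at Day 2 (3.36% and 2.89%) and 2 at Day 0 (1.55% and 0.52%). With a block on the hairpin the comparison of 5 had 1 (0.394% and 0.949%). The day counts were then 44 in PCBP2 (40.2% and 41.6%), 40 in PCBP1 (39.5% and 41.1%) and 43 in controls (39.7% and 41.9%).

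Member splicing variations with a change of at least 10 points, whatever the probability, numbered 4 for PCBP2 and 8 for PCBP1 at Day 2 and 1 for each at Day 0, and with a probability of 0.95 they numbered 0 for PCBP2 and 1 for PCBP1 at Day 2. Genes that overlap another on the opposite strand and the pooled splicing tables limit what these values show.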

Other observations

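Genes that act before mitosis changed with day as well, against 42.4% of all genes called lower and 40.4% higher in controls. Of 24 DNA replication genes 23 fell in controls and 0 rose (median -1.76), and of 8 G1 and S phase cyclins and kinases 6 fell and 2 rose (median -2.1). Mcm7, a subunit of the replicative helicase, had -1.38, and Rfc3, of the clamp loader, -2.05. Cdk4 and Cdk6, the kinases of the D-type cyclins, had -2.56 and -2.54. Of 14 genes of the DREAM and MuvB complexes and NF-Y, 7 fell and 7 rose; Lin37 of MuvB had 2.62 and Mybl1 2.79.

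At Day 2, 15 of the 24 replication genes were lower in the PCBP2 than in the PCBP1 knockdown and 0 higher (median -0.53), against 7.5% of all genes lower. The count was 20 without LUC-1 (11.6% of all genes) and 3 in the fit on the 9 Day 2 libraries (1.63%). Among the 15 were Tk1, thymidine kinase, with -0.65 and Fen1, the flap endonuclease, with -0.68. Of the G1 and S phase genes 4 of 8 were lower (median -0.37), among them Ccne1 with -0.73, and 1 of 8 in the fit on the 9 Day 2 libraries. Ccnd3, a D-type cyclin, had -0.67 in the PCBP2 and -0.68 in the PCBP1 knockdown over control, while Ccnd2 had 0.86 in the PCBP1 knockdown. E2f4 had 0.54 and Rbl2 -0.73 in the PCBP2 against the PCBP1 knockdown.

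The genes whose levels over the 18 libraries were most like the members' median were Arhgap19 with a Pearson r of 0.995 and Atad2, Slbp, Ncaph and Rad54l with 0.994. The 18 libraries share 2 days, and the day change enters these values.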
